A study of Mus musculus with 24 samples.

Results

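The translation initiation and elongation factors were taken as the rows of the count table whose symbol starts with Eif or Eef and whose biotype is protein-coding. This rule selected 66 of 24537 rows, of which 20709 are protein-coding. The rows of Eif3j1 and Eif3j2 held the same count in every library and lay over each other on chromosome 2, at 122028580 to 122053632 and 122028583 to 122053631 of mm10. They were counted once, under Eif3j1, which left 65 distinct factors. Each of the 65 passed the filter on low counts. Eif4e1b passed it only through the Cre+ EDL libraries, where it is high, so its counts are given as a description and the tallies of changed factors cover the other 64.

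RNA was sequenced from whole extensor digitorum longus (EDL), a fast-twitch muscle, and soleus (SOL), a slower muscle rich in oxidative fibres, of mice aged 2 months. Cre+ animals were Acta1-Cre+/4Fhet and Cre- animals Acta1-Cre-/4Fhet, so both genotypes carried the inducible cassette for Oct4 (Pou5f1), Sox2, Klf4 and Myc (OSKM). Both also drank water with 1 mg/ml doxycycline (Dox). The time on Dox was 2.5 days, 5.5 days or 8.5 days. The Acta1 promoter drives Cre in skeletal myofibers, where Cre opens the rtTA transgene that answers to Dox. Each of the 12 combinations of muscle, genotype and day had 2 libraries, 24 in all. The transgenic lines came from the Jackson Laboratory and animals of both sexes were used in the study, and the sex behind each library is not given in the sources used here. A whole muscle also holds vascular, immune, connective tissue and satellite cells, and fewer cells of a type cannot be told apart from less RNA per cell in such samples.

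Initiation factors bring the initiator tRNA and the mRNA to the small ribosomal subunit and move it to the start codon. eIF2 carries the initiator tRNA, eIF3 is the large scaffold on the small subunit, and eIF4F (the cap-binding eIF4E, the helicase eIF4A and the scaffold eIF4G) recruits the capped mRNA. Elongation factor eEF1A then delivers each aminoacyl-tRNA and eEF2 moves the ribosome along by a codon. Adult skeletal muscle, heart and neurons are known for using the isoform eEF1A2 (Eef1a2) in place of the widespread eEF1A1 (Eef1a1).

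Counted reads per library ranged from 36088781 to 54679082, and the 65 factors together took between 0.973% and 1.92% of them. Levels are given as FPKM, the counted reads divided by exon length and by a library size that TMM (edgeR) had scaled. Pou5f1 was at 15.6 and 58.2 FPKM in the Cre+ EDL libraries at 2.5 days and at 67.1 and 55.4 at 8.5 days. The Cre+ SOL libraries held 4.51 and 8.76 FPKM at 2.5 days and 11.4 and 6.06 at 8.5 days. At 5.5 days the level was 1.08 and 29.9 FPKM in Cre+ EDL and 0.0802 and 0.391 in Cre+ SOL, against at most 0.0938 in the 12 Cre- libraries. In Cre- muscles 8 of 8 fast fibre markers were higher and 8 of 8 slow fibre markers lower in EDL than in SOL. A factor was called changed at an adjusted p under 0.05 with an absolute log2 fold change over 0.5, in the quasi-likelihood fit of edgeR, with p-values adjusted over all tested genes by the method of Benjamini and Hochberg. With 2 libraries a group, a permutation test of a single factor cannot go below a p of 0.333.

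In Cre- muscles the factors covered more than 3 orders of magnitude. Averaged over the 6 Cre- EDL libraries, Eef2 was highest at 711 ± 185 FPKM (SD, n = 6), followed by Eef1a2 at 696 ± 88.3, the start codon factor Eif1 at 460 ± 114, Eef1a1 at 294 ± 47.0 and Eif5a, which relieves stalled ribosomes, at 293 ± 20.4. In the 6 Cre- SOL libraries Eef1a2 stood first at 871 ± 121 FPKM, then Eef2 at 830 ± 212, Eif1 at 400 ± 95.8, Eef1a1 at 393 ± 67.3 and Eif5a at 280 ± 18.2. Eef2 and Eef1a2 lay within each other's SD in both muscles, and so did Eif1 and Eef1a1 in SOL. At the other end, Eif5a2, the rarely used paralogue of Eif5a, was at 0.398 ± 0.0789 FPKM in EDL and 0.364 ± 0.0835 in SOL, and Eif4e1b, an eIF4E relative of germ cells, had 0 or 1 count in each of the 12 Cre- libraries.

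**Figure D1:**
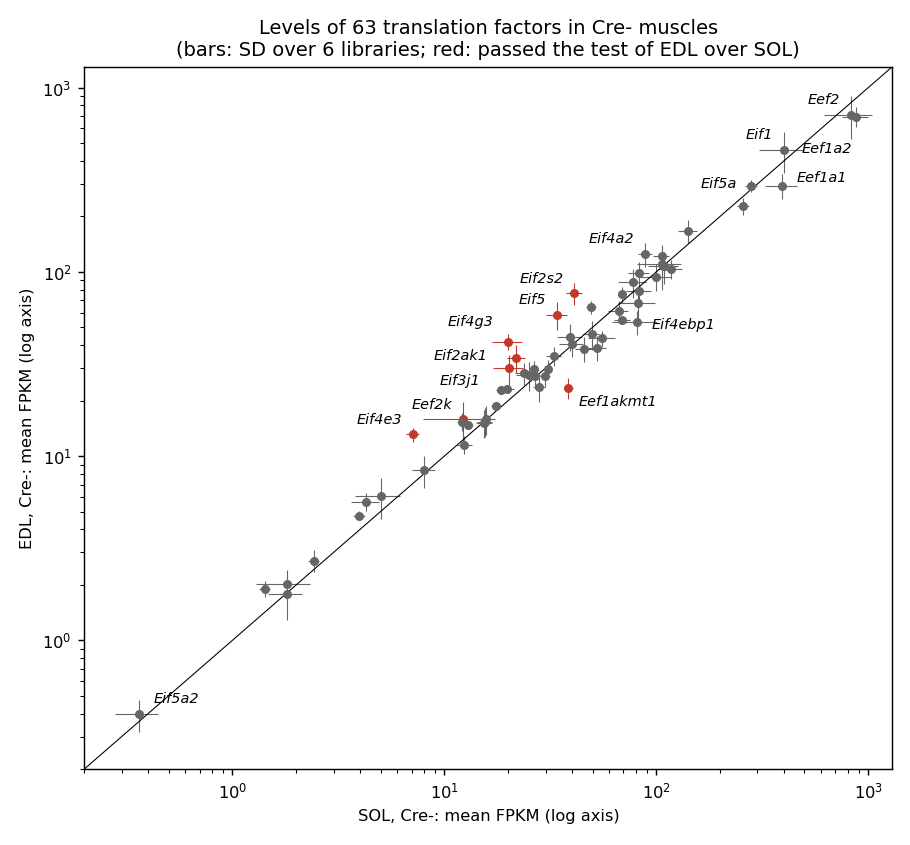
Mean level of 63 factors in Cre- EDL (vertical) against Cre- SOL (horizontal), both in FPKM on log axes, with the SD over 6 libraries as bars. Eif4e1b and the Y-linked Eif2s3y are left out. The 8 factors that passed the test of EDL over SOL, which used the libraries of 2.5 and 8.5 days, are red, and 7 of them lie above the diagonal.

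EDL and SOL of Cre- animals were compared over 2.5 and 8.5 days to ask which factors differ between a fast and a slower muscle. In this comparison 7 factors were higher and 1 lower in EDL, while 21.9% of all 15372 tested genes were called (10.8% higher, 11.1% lower). The median log2 difference was 0.06 for the factors and 0.01 for all genes. When libraries were scaled by their totals alone, 4 factors were higher and 4 lower, with 1257 of all genes higher and 2117 lower.

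Eif4g3, a paralogue of the scaffold eIF4G1, had the largest called difference. Its level was 43.4, 36.6, 40.5 and 37.8 FPKM in Cre- EDL and 20.3, 16.9, 24.6 and 15.8 in Cre- SOL, with no overlap (log2 difference 1.02, SE 0.14, edgeR adjusted p = 0.00016). Eif4e3, an atypical cap-binding relative of eIF4E, was at 10.8 to 14.1 FPKM in EDL and 6.48 to 7.40 in SOL (log2 difference 0.87). Eif2s2, the beta subunit of eIF2, was at 65.8 to 79.9 FPKM in EDL and 35.8 to 45.0 in SOL (0.83). Eif5, the GTPase activator of eIF2, differed by 0.76, the eIF3 subunit gene Eif3j1 by 0.55, the haem-regulated eIF2 kinase gene Eif2ak1 by 0.53 and the eEF2 kinase gene Eef2k by 0.51 on the log2 scale. The call of Eef2k was kept in 4 of 8 alternatives with every library. Its log2 difference ran from 0.45 to 0.56 with single libraries left out. Eif4g3 overlaps 1700095J12Rik, Eif2ak1 overlaps Ankrd61 and Aimp2, and Eif3j1 overlaps Spg11, each on the other strand. The strand setting of the counting is not given in the sources used here. The factor lower in EDL was Eef1akmt1, a methyltransferase of eEF1A, at 20.7 to 22.7 FPKM against 35.2 to 40.5 in SOL (log2 difference -0.84, SE 0.10). Its levels did not overlap between the muscles either. With same-numbered EDL and SOL libraries paired in a replicate block, the binding protein gene Eif4ebp1 was also lower in EDL, at a log2 difference of -0.50.

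Promoter sequences of 6 factors are shown, because E-box motifs bound by Myc (CACGTG) are one feature by which promoters of factors that moved together can be set beside each other. Eef1a1 and Eef1a2 are the isoform pair, and Eef2, Eef2k, Eif3a and Eif4a1 are the 4 factors that rose in Cre+ EDL at 2.5 days and have the motif in their promoter window. Sequences are from RefSeq, build GRCm38.p6, each 100 bases on the gene's own strand, in lower case with CACGTG in capitals. The stretches include the annotated start except that of Eif4a1, which lies wholly before it.
Eef1a1 at chr9:78481705-78481804, minus strand: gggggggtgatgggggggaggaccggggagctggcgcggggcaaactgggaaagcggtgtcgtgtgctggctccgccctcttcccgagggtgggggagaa
Eef1a2 at chr2:181156996-181157095, minus strand: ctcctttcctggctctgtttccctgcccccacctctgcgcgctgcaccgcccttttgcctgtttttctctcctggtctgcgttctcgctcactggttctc
Eef2 at chr10:81176551-81176650, plus strand: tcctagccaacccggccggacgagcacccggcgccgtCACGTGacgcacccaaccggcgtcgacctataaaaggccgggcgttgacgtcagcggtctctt
Eef2k at chr7:120842751-120842850, plus strand: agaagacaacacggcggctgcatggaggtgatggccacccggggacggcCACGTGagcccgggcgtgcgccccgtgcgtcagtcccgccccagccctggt
Eif3a at chr19:60790666-60790765, minus strand: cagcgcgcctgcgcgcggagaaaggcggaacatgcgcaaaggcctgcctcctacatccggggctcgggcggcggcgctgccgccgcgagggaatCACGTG
Eif4a1 at chr11:69672560-69672659, minus strand: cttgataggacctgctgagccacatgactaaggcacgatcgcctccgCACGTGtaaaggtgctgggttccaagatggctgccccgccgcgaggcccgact

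The motif lay 43 bases before the start in Eef2, 31 before it in Eef2k, 189 before it in Eif4a1 and 22 after it in Eif3a. CACGTG reads the same on both strands. In windows from 250 bases before to 50 after the start it was present in 10 of the 50 factors with a RefSeq start within 34 bases of the counted one (20%), and in 2349 of 32851 promoters of all genes (7.15%). Each factor entered with the start nearest the counted one. The promoters of all genes were every annotated start, several for some genes, with no filter on expression. The shares are thus of unlike sets. Among the 17 matched factors that rose in Cre+ EDL at 2.5 days it was present in 4 (23.5%), and among the other 33 in 6 (18.2%). A start C followed by at least 4 pyrimidines, the form of the terminal oligopyrimidine tract of many translation genes, was found at the annotated start of Eif2s3x and Eif3f (2 of 50, 4.0%), against 2.51% of all promoters. None of the 17 had it at that exact base. A tract that begins elsewhere is missed by this count. The printed Eef1a1 stretch has a run of pyrimidines across its annotated start and was not counted. These counts describe letters in a window and say nothing of binding.

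In Cre+ EDL muscles at 2.5 days 19 of the 64 factors other than Eif4e1b were higher and 1 was lower than in Cre- EDL muscles. Over all 15372 tested genes, 24% were called, 13.8% higher and 10.2% lower. The median log2 fold change was 0.27 for the factors and -0.05 for all genes. At 8.5 days 5 of the 64 were higher and 2 lower in EDL, with 14.1% of all genes called (7.63% higher, 6.5% lower) and medians of 0.16 and -0.02. Scaled by library totals alone, the split was 34 higher and 1 lower at 2.5 days, with 4207 of all genes higher and 610 lower. At 8.5 days it was 15 higher and 1 lower, with 1956 of all genes higher and 542 lower. Eef1a1, Eif3l, Eif4b and Eif4ebp2 rose and Eif4e3 fell at both days. For comparisons of genotype the replicate block paired same-numbered Cre+ and Cre- libraries of a muscle and day. With it 17 were higher and 1 lower at 2.5 days, and 3 higher (Eef1a1, Eif2d and Eif3l) and 1 lower (Eif4e3) at 8.5 days. The deviations of libraries paired in this way correlated at only -0.17 to 0.0579.

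In SOL none of the 65 factors passed at any day. At 2.5 days 0.384% of all genes were called, and 5 factors had an unadjusted edgeR p under 0.05. At 8.5 days these values were 0.631% and 5. An unadjusted p under 0.05 is a looser threshold than a call, and the share of all genes reaching it is not given here. The counts at that p therefore have no share over all genes beside them. DESeq2 on the same libraries called 0 factors at 2.5 days and 1 at 8.5 days, the Y-linked Eif2s3y at 11 counts or fewer. The median log2 fold change of the factors in SOL was -0.00 at 2.5 days and 0.03 at 8.5 days. At 5.5 days 0 factors passed in either muscle by edgeR or by DESeq2 on the same libraries, with 0.304% of all genes called in EDL and 0% in SOL. An unadjusted edgeR p under 0.05 was reached by 3 factors in EDL and 1 in SOL at that day.

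**Figure D2:**
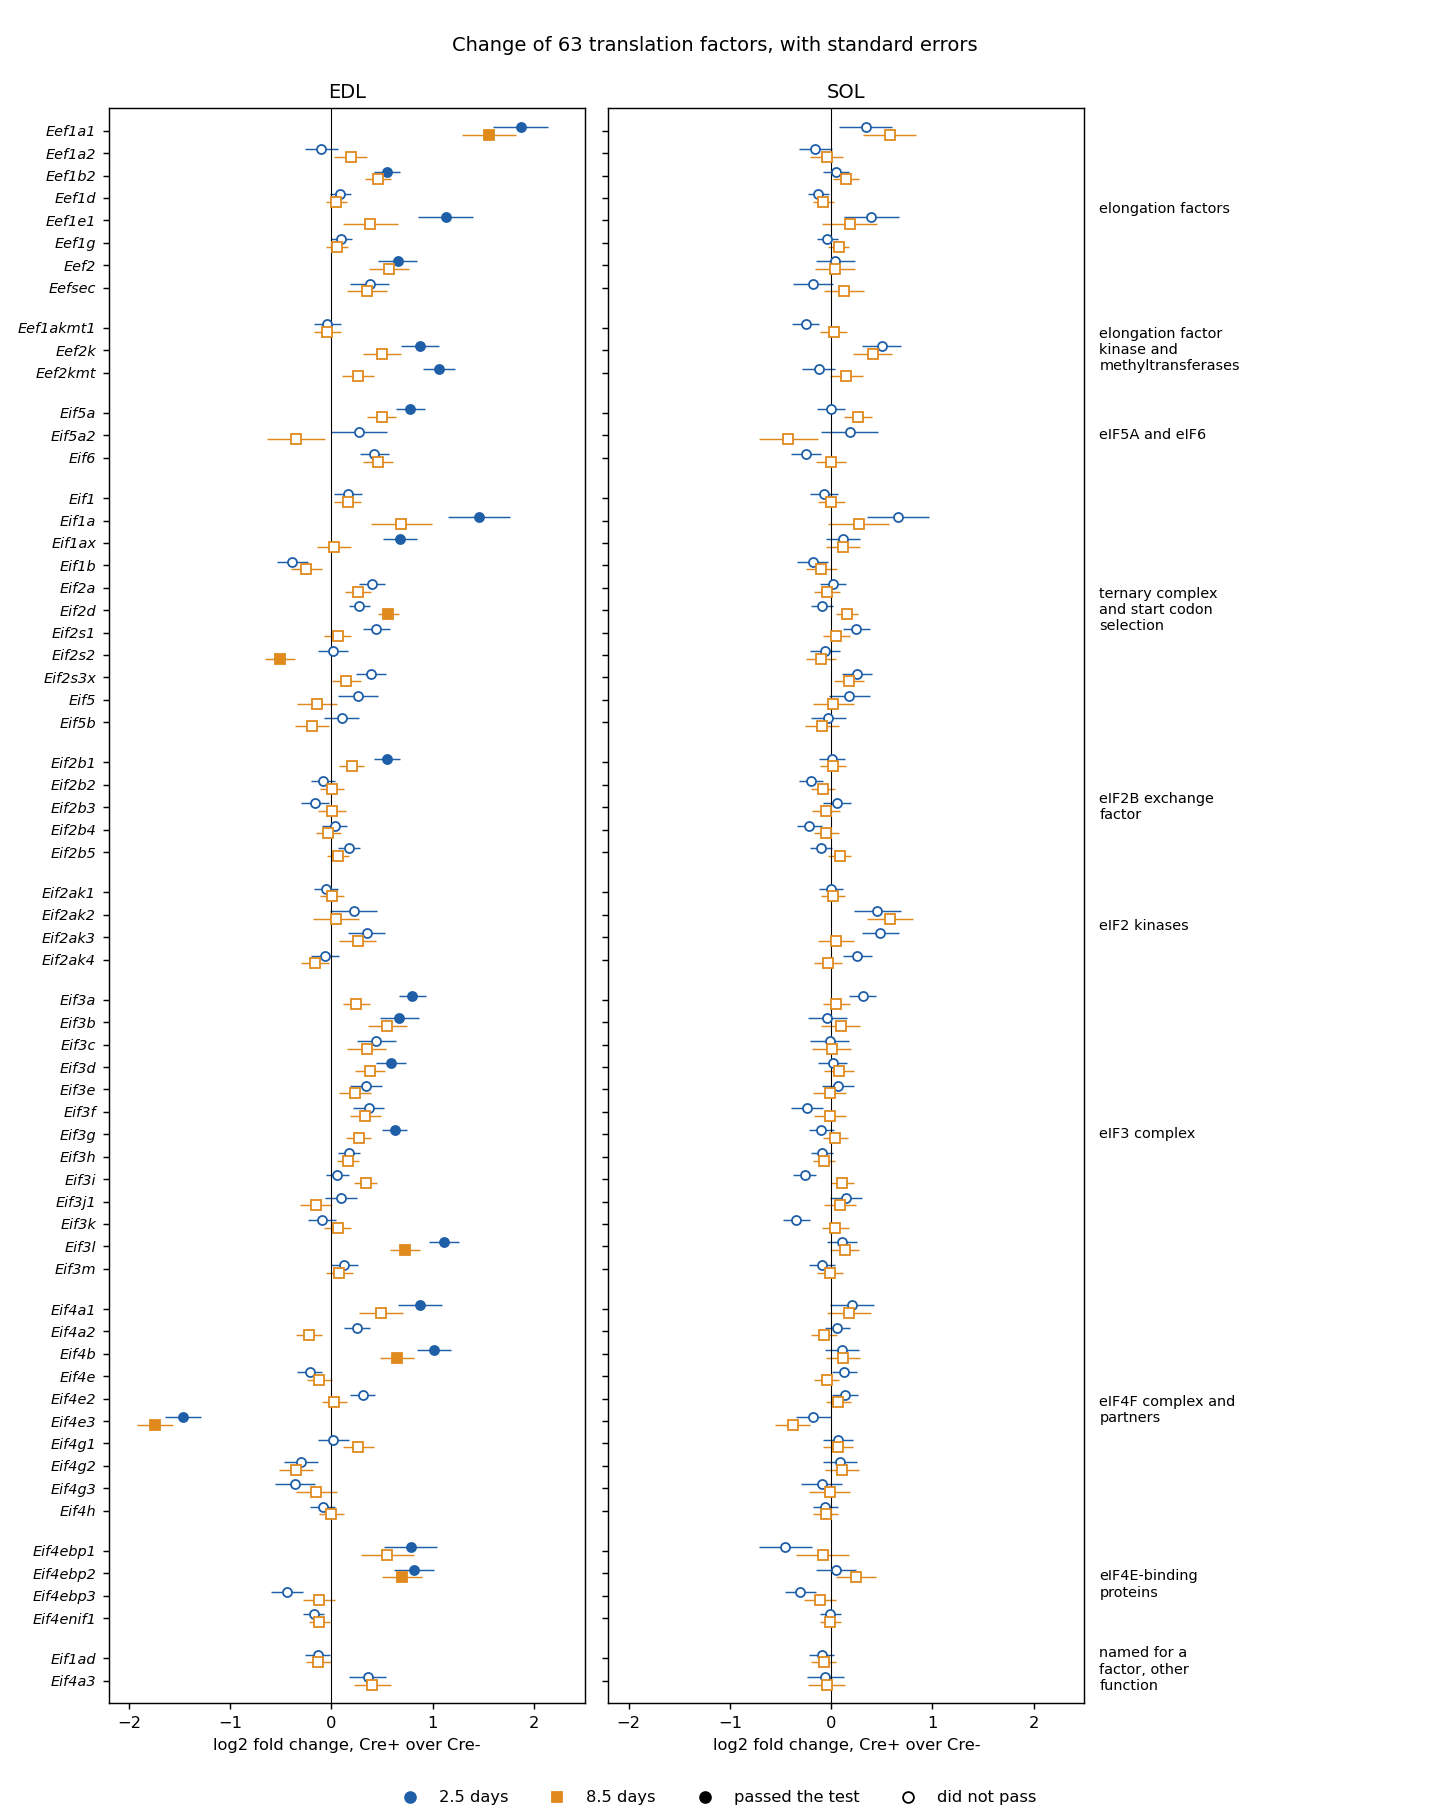
Log2 fold change, Cre+ over Cre-, of 63 factors grouped by role in EDL (left) and SOL (right), at 2.5 days (circles) and 8.5 days (squares), with the standard error as bars and filled marks for factors that passed the test. Eif4e1b and Eif2s3y are left out, having few or no counts in most libraries. Filled marks appear in the EDL panel, where Eef1a1 lies farthest right at 1.87 and Eif4e3 farthest left at -1.74.

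Eef1a1, which delivers aminoacyl-tRNA in most tissues, had the largest rise of the factors detected in every library. In Cre- EDL it was at 329 and 264 FPKM at 2.5 days, and in Cre+ EDL at 964 and 1187. At 8.5 days it was at 369 and 278 FPKM in Cre- EDL and at 1130 and 770 in Cre+ EDL. Every Cre+ library lay above every Cre- library at both days. The fold change was 3.65 at 2.5 days (log2 1.87, SE 0.27, edgeR adjusted p = 0.00035) and 2.93 at 8.5 days (log2 1.55, SE 0.27, edgeR adjusted p = 0.0022).

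In Cre+ SOL Eef1a1 was at 620 and 424 FPKM at 2.5 days, with 447 and 370 in Cre- SOL, so that the groups overlapped. At 8.5 days the values were 810 and 552 FPKM against 457 and 452. The log2 fold changes in SOL, 0.34 and 0.58, did not pass, with unadjusted p of 0.21 and 0.046 and edgeR adjusted p = 0.61 and 0.73. The change in EDL exceeded that in SOL by 1.53 on the log2 scale at 2.5 days (SE 0.37, edgeR adjusted p = 0.039). At 5.5 days Eef1a1 was at 308 and 317 FPKM in Cre+ EDL against 281 and 241 in Cre- EDL. The Cre+ EDL library with 29.9 FPKM of Pou5f1 at that day was the one at 317. Replicate 1 of Cre+ EDL at 2.5 days held less Pou5f1 and was at 964 FPKM of Eef1a1. Eef1a1 has many processed pseudogenes and only uniquely aligned reads were counted, so its absolute level is less certain than its ratio between libraries.

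Eef1a2, the muscle isoform, did not pass in any comparison of Cre+ with Cre-. It was at 607 and 717 FPKM in Cre- EDL and 647 and 581 in Cre+ EDL at 2.5 days. At 8.5 days the values were 566 and 744 against 736 and 765. The log2 fold changes were -0.10 (SE 0.16) and 0.19 (SE 0.16), and the groups overlapped at both days.

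**Figure D3:**
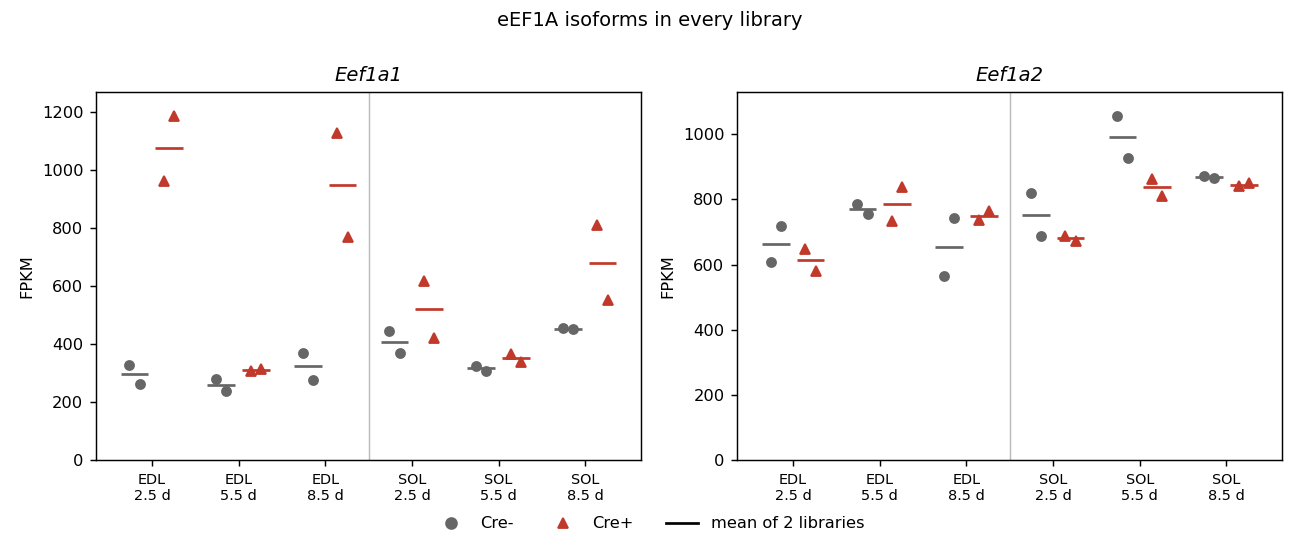
Level of Eef1a1 (left) and Eef1a2 (right) in each library in FPKM, by muscle and day of Dox, with Cre- as circles, Cre+ as triangles and the mean of the 2 libraries as a line. Eef1a1 is at 770 FPKM or more in the Cre+ EDL libraries of 2.5 and 8.5 days and at 369 or less in the Cre- EDL libraries, while Eef1a2 lies between 566 and 836 in EDL in both genotypes.

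The balance of the isoforms moved with Eef1a1. At 2.5 days Eef1a1 made up 35.2% and 26.9% of the summed FPKM of both genes in Cre- EDL and 59.8% and 67.1% in Cre+ EDL. At 8.5 days its share was 39.5% and 27.2% in Cre- EDL and 60.6% and 50.2% in Cre+ EDL. Eef1a1 was thus the larger of the pair in the 4 Cre+ EDL libraries of these days and the smaller in the Cre- ones. The mean log2 ratio of Eef1a1 to Eef1a2 was -1.09 ± 0.41 in Cre- EDL and 0.56 ± 0.42 in Cre+ EDL (SD, n = 4 each). The difference of 1.65 had a two-sided exact permutation p of 0.0556, with labels permuted within each day, which is the smallest p these 8 libraries can give.

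In SOL the share of Eef1a1 was 35.3% and 35.0% in Cre- and 47.4% and 38.6% in Cre+ muscles at 2.5 days. At 8.5 days it was 34.4% in both Cre- libraries and 49.1% and 39.4% in the Cre+ ones. The mean log2 ratio was -0.91 ± 0.03 in Cre- SOL and -0.37 ± 0.32 in Cre+ SOL (n = 4 each), a difference of 0.53 with the same smallest exact p of 0.0556. At 5.5 days the share was 26.4% and 24.1% in Cre- EDL and 29.6% and 27.5% in Cre+ EDL, and 23.6% and 24.9% in Cre- SOL and 29.8% and 29.4% in Cre+ SOL. With the 12 libraries of all 3 days, the difference was 1.18 in EDL and 0.49 in SOL, each with an exact permutation p of 0.00926, the smallest possible. These sets take in the Cre+ libraries of 5.5 days, with 64 and 1686 counts of Pou5f1 in EDL and 4 and 22 in SOL. The study removed samples without OSKM overexpression as outliers and reported on 2.5 and 8.5 days. Between Cre- EDL and Cre- SOL the log2 ratio differed by -0.10, less than the spread between libraries (exact permutation p = 0.491, n = 6 each).

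Cell types other than myofibers also use eEF1A1, so their markers were read in the same libraries. At 2.5 days the summed level of 6 fibroblast markers was 1851 and 1695 FPKM in Cre- EDL and 2080 and 1032 in Cre+ EDL, and 0 of the 6 passed. The 8 macrophage and monocyte markers summed to 68.4 and 45.9 FPKM in Cre- and 65.0 and 38.5 in Cre+ EDL, with 0 of 8 called. The 6 endothelial markers summed to 89.2 and 104 FPKM in Cre- and 68.4 and 61.3 in Cre+ EDL, and 3 of 6 were lower. The Cre+ library with the higher Eef1a1, replicate 2, had the lower sum for each of these lists. At 8.5 days the Cre+ library with the higher Eef1a1, replicate 1, had the higher sum for each. The sums there were 1525 and 1773 FPKM in Cre- and 2452 and 1884 in Cre+ EDL for fibroblast markers, 102 and 91.6 against 125 and 106 for macrophage and monocyte markers, and 84.3 and 102 against 90.8 and 84.3 for endothelial markers. Of 8 fast fibre markers 4 were lower in Cre+ EDL at 2.5 days, with sums of 95610 and 105700 FPKM in Cre- and 69290 and 51620 in Cre+, and 2 were lower at 8.5 days. At 8.5 days 0 of 6 fibroblast, 0 of 8 macrophage and 0 of 6 endothelial markers were called in EDL. The satellite cell markers summed to 25.2 and 26.9 FPKM in Cre- and 24.7 and 17.8 in Cre+ EDL at 2.5 days, with 1 of 6 lower. Liver markers summed to 6.95 and 7.27 FPKM in Cre- EDL at 8.5 days and 0.93 and 0.776 in Cre+ EDL, with 4 of 6 lower. In SOL at that day the liver sums were 20.2 and 96.6 FPKM in Cre- and 0.786 and 1.25 in Cre+, with 6 of 6 lower. The part of these cell types in the change of Eef1a1 was not tested.

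Of the 8 genes listed by name as elongation factors 4 rose in Cre+ EDL at 2.5 days and 1 at 8.5 days. The list and the 4 include Eef1e1, whose product belongs to the multi-synthetase complex. Over all tested genes 13.8% and 7.63% rose at these days, and the counts by role below stand beside these shares. Eef2, the translocase, was at 668 and 472 FPKM in Cre- EDL and 855 and 927 in Cre+ EDL at 2.5 days, with no overlap (log2 fold change 0.65, edgeR adjusted p = 0.026, or 0.074 in the replicate block, where it did not pass). Eef1b2, a subunit of the exchange factor that reloads eEF1A with GTP, rose by 0.55. The other subunits of that complex, Eef1d and Eef1g, had log2 fold changes of 0.09 and 0.10 and did not pass. Eef1e1, which sits in the multi-synthetase complex, was at 13.3 and 14 FPKM in Cre- and 18 and 41.3 in Cre+ EDL (log2 fold change 1.13, SE 0.27). Its rise rests largely on replicate 2, without which the log2 fold change was 0.41 and did not pass.

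Of the 3 genes for a kinase or methyltransferases of elongation factors 2 rose at 2.5 days. The other, Eef1akmt1, was at 22.6 and 21.1 FPKM in Cre- EDL and 19.5 and 22.7 in Cre+ EDL (log2 fold change -0.04). Eef2kmt, the methyltransferase of eEF2, was at 4.74 and 5.12 FPKM in Cre- EDL and 9.06 and 11.4 in Cre+ EDL (log2 fold change 1.06, SE 0.16, edgeR adjusted p = 0.00046). In SOL it was at 3.96 and 4.48 FPKM in Cre- and 4.35 and 3.45 in Cre+, and the change in EDL exceeded that in SOL by 1.18 (SE 0.23, edgeR adjusted p = 0.014). At 8.5 days Eef2kmt was at 4.77 and 4.46 FPKM in Cre- and 5.30 and 5.83 in Cre+ EDL and did not pass. Eef2kmt overlaps Alg1 on the other strand. Eef2k, the kinase that slows elongation by phosphorylating eEF2, went from 17.4 and 15.0 to 22.5 and 36.6 FPKM at 2.5 days (0.87, SE 0.19). Eif5a was at 270 and 308 FPKM in Cre- and 457 and 527 in Cre+ EDL (0.78, SE 0.14), and its change exceeded that in SOL by 0.78 (edgeR adjusted p = 0.049, or 0.062 with paired EDL and SOL libraries). Eif6, which keeps the large subunit apart, had log2 fold changes of 0.43 and 0.46 at 2.5 and 8.5 days and did not pass.

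Of the 12 genes of the ternary complex and of start codon selection 2 rose at 2.5 days, and 1 rose and 1 fell at 8.5 days. These counts are near the shares over all genes, 13.8% higher at 2.5 days and 7.63% higher and 6.5% lower at 8.5 days. The risers at 2.5 days were the paralogues Eif1a and Eif1ax, which encode the eIF1A that scans for the start codon. Eif1a was at 5.23 and 5.05 FPKM in Cre- EDL and at 7.84 and 20.2 in Cre+ EDL (log2 fold change 1.46, SE 0.31, edgeR adjusted p = 0.0036), with replicate 2 far above replicate 1. Without replicate 2 the log2 fold change was 0.61 and still passed. Eif1ax, more abundant, was at 62.1 and 61.4 FPKM in Cre- and 77.6 and 118 in Cre+ EDL (0.68). At 8.5 days Eif2d, a factor of non-canonical initiation and recycling, was at 18.7 and 18.1 FPKM in Cre- and 26.7 and 27.7 in Cre+ EDL (log2 fold change 0.56, SE 0.11, edgeR adjusted p = 0.0040).

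The genes for the 3 subunits of eIF2 did not move alike. Eif2s2 was at 79.9 and 65.8 FPKM in Cre- EDL and at 46.0 and 56.9 in Cre+ EDL at 8.5 days, with no overlap (log2 fold change -0.51, SE 0.15, edgeR adjusted p = 0.034), and its log2 fold change at 2.5 days was 0.01. This call was kept in 5 of 10 alternatives with every library and in 2 of 4 with 1 library left out, and the edgeR adjusted p was 0.10 in the replicate block. The alpha subunit gene Eif2s1 had 0.44 at 2.5 days and 0.06 at 8.5 days and did not pass. Among the 5 genes of eIF2B, the exchange factor that recharges eIF2, Eif2b1 rose by 0.55 at 2.5 days and the other 4 lay between -0.16 and 0.17. None of the 4 eIF2 kinase genes passed at either day in EDL, with log2 fold changes between -0.16 and 0.35 and 0 of 4 at an unadjusted edgeR p under 0.05.

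The gamma subunit of eIF2 has an X-linked gene, Eif2s3x, and a Y-linked one, Eif2s3y. Eif2s3y was at 29.6 to 47.6 FPKM in the 8 libraries of 2.5 days, while the 16 libraries of 5.5 and 8.5 days had 0 to 19 counts of it. The X-inactivation transcript Xist was at most 0.0571 FPKM in those 8 libraries and at 6.61 to 21.3 FPKM in the other 16. Eif2s3x was at 3.38 to 6.17 FPKM at 2.5 days and at 5.26 to 7.94 later. The libraries thus divide by day as male and female muscles would, and this division and the day of Dox cannot be told apart. Within a day Cre+ and Cre- libraries were on the same side, so comparisons of genotype at one day do not cross it. No factor passed the test of the change at 8.5 days minus that at 2.5 days in EDL by edgeR or DESeq2. That comparison, with 0% of all genes called, does cross it. In it 5 factors had an unadjusted edgeR p under 0.05, a looser threshold than a call.

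**Figure D4:**
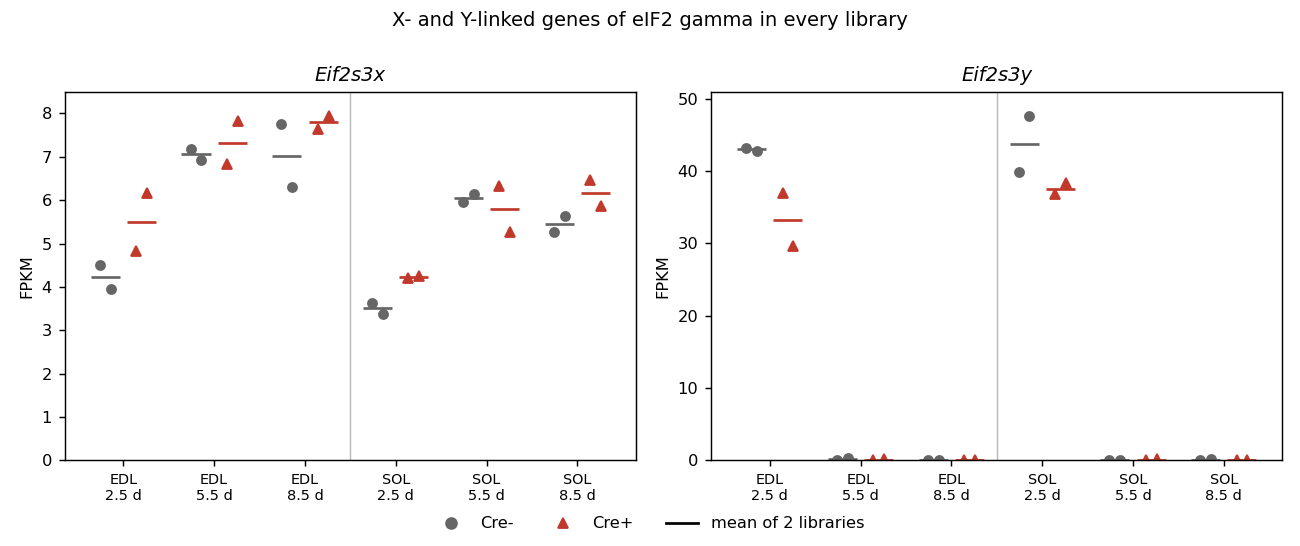
Level of Eif2s3x (left) and Eif2s3y (right) in each library in FPKM, by muscle and day, with Cre- as circles, Cre+ as triangles and means of 2 libraries as lines. Eif2s3y is at 29.6 FPKM or more in the libraries of 2.5 days in both genotypes and both muscles and near 0 at 5.5 and 8.5 days.

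Of the 13 distinct eIF3 subunit genes 5 rose in Cre+ EDL at 2.5 days and 1 at 8.5 days, and none fell. Over all genes 13.8% and 7.63% rose at these days. The median log2 fold change of the 13 was 0.37 and 0.27 at these days, and -0.04 and 0.04 in SOL. Eif3l, a subunit at the edge of the complex, changed most. It was at 38.5 and 39.0 FPKM in Cre- EDL and 76.2 and 90.9 in Cre+ EDL at 2.5 days (log2 fold change 1.12, SE 0.15, edgeR adjusted p = 0.00021). At 8.5 days it was at 28.6 and 37.5 FPKM in Cre- and 52.3 and 57.8 in Cre+ EDL (0.73, SE 0.15, edgeR adjusted p = 0.0055). The change exceeded that in SOL by 1.01 at 2.5 days (SE 0.21, edgeR adjusted p = 0.020).

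The core scaffold genes Eif3a and Eif3b rose by 0.80 and 0.67 on the log2 scale at 2.5 days, Eif3g, which binds mRNA and eIF4B, by 0.63 and Eif3d by 0.59. Eif3a was at 24.5 and 26.9 FPKM in Cre- EDL and 40.0 and 48.9 in Cre+ EDL. For Eif3g the change exceeded that in SOL by 0.72 (edgeR adjusted p = 0.038). Eif3k, which pairs with the product of Eif3l in the complex, had -0.09, and Eif3h and Eif3m had 0.17 and 0.13, without passing. The subunits of 1 complex therefore spread over 1.21 log2 units at 2.5 days.

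Among the 10 genes of eIF4F and its partners other than Eif4e1b 2 rose and 1 fell at 2.5 days, and 1 rose and 1 fell at 8.5 days, all in EDL. Over all genes 13.8% were higher and 10.2% lower at 2.5 days, and 7.63% and 6.5% at 8.5 days. Eif4b, which stimulates the helicase, was at 105 and 78.5 FPKM in Cre- EDL and 166 and 201 in Cre+ EDL at 2.5 days (log2 fold change 1.01, SE 0.17, edgeR adjusted p = 0.00089). At 8.5 days it was at 91.2 and 89.8 against 154 and 130 FPKM (0.65, SE 0.17, edgeR adjusted p = 0.020, or 0.081 in the replicate block), a call kept with 1 of the 4 libraries left out and lost with the others. Both days showed no overlap between genotypes. The helicase gene Eif4a1 went from 54.9 and 56.9 to 72.2 and 132 FPKM at 2.5 days (0.88, SE 0.22), and without replicate 2 its log2 fold change was 0.37 and did not pass. Its more abundant muscle paralogue Eif4a2 had 0.25 and -0.22 at 2.5 and 8.5 days and did not pass. The scaffold genes Eif4g1, Eif4g2 and Eif4g3 had log2 fold changes between -0.36 and 0.27 in EDL.

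Eif4e3 was the factor with the largest fall. It was at 10.8 and 13.1 FPKM in Cre- EDL and 3.58 and 5.0 in Cre+ EDL at 2.5 days, and at 14.1 and 13.7 against 3.58 and 4.72 at 8.5 days. The level was 2.76-fold lower at 2.5 days (log2 -1.46, SE 0.18, edgeR adjusted p = 0.00011) and 3.35-fold lower at 8.5 days (log2 -1.74, SE 0.18, edgeR adjusted p = 5.4e-05). In SOL, where the starting level was lower, it was at 7.40 and 7.37 FPKM in Cre- and 6.06 and 7.12 in Cre+ muscles at 2.5 days. At 8.5 days the SOL values were 6.68 and 6.48 against 5.13 and 5.03 FPKM. The log2 fold changes in SOL were -0.18 and -0.38 and did not pass. The change in EDL was lower than that in SOL by 1.29 at 2.5 days and by 1.37 at 8.5 days on the log2 scale (edgeR adjusted p = 0.014 and 0.030). At 5.5 days Eif4e3 was at 11 and 8.07 FPKM in Cre+ EDL and 13.3 and 13.9 in Cre- EDL, the groups not overlapping, at a log2 fold change of -0.53 that did not pass (unadjusted p = 0.0069, edgeR adjusted p = 0.29). The lower value, 8.07, was that of the Cre+ library with 29.9 FPKM of Pou5f1. Replicate 1 of Cre+ EDL at 2.5 days held less Pou5f1 and was at 3.58 FPKM of Eif4e3, so the level did not follow Pou5f1 across days.

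The other cap-binding genes differed from Eif4e3. Eif4e was at 22.5 and 23.4 FPKM in Cre- EDL and 19.4 and 19.8 in Cre+ EDL at 2.5 days (log2 fold change -0.22) and did not pass. Eif4e2, a repressor form, had 0.31 and 0.03 at the 2 days and did not pass. Within the summed FPKM of Eif4e, Eif4e2 and Eif4e3, the share of Eif4e3 was 19.5% and 22.5% in Cre- EDL and 7.70% and 9.09% in Cre+ EDL at 2.5 days. Eif4e1b had 0 counts in both Cre- EDL libraries and 22 and 21 in the Cre+ ones at 2.5 days, which is at least 5.53-fold higher against a floor of 3 counts per library. At 8.5 days it had 0 and 1 counts against 11 and 9, a ratio of 13.6 that rests on 1 Cre- read. Cre+ SOL libraries held 4 and 2 counts of Eif4e1b at 2.5 days and 8 and 4 at 8.5 days.

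**Figure D5:**
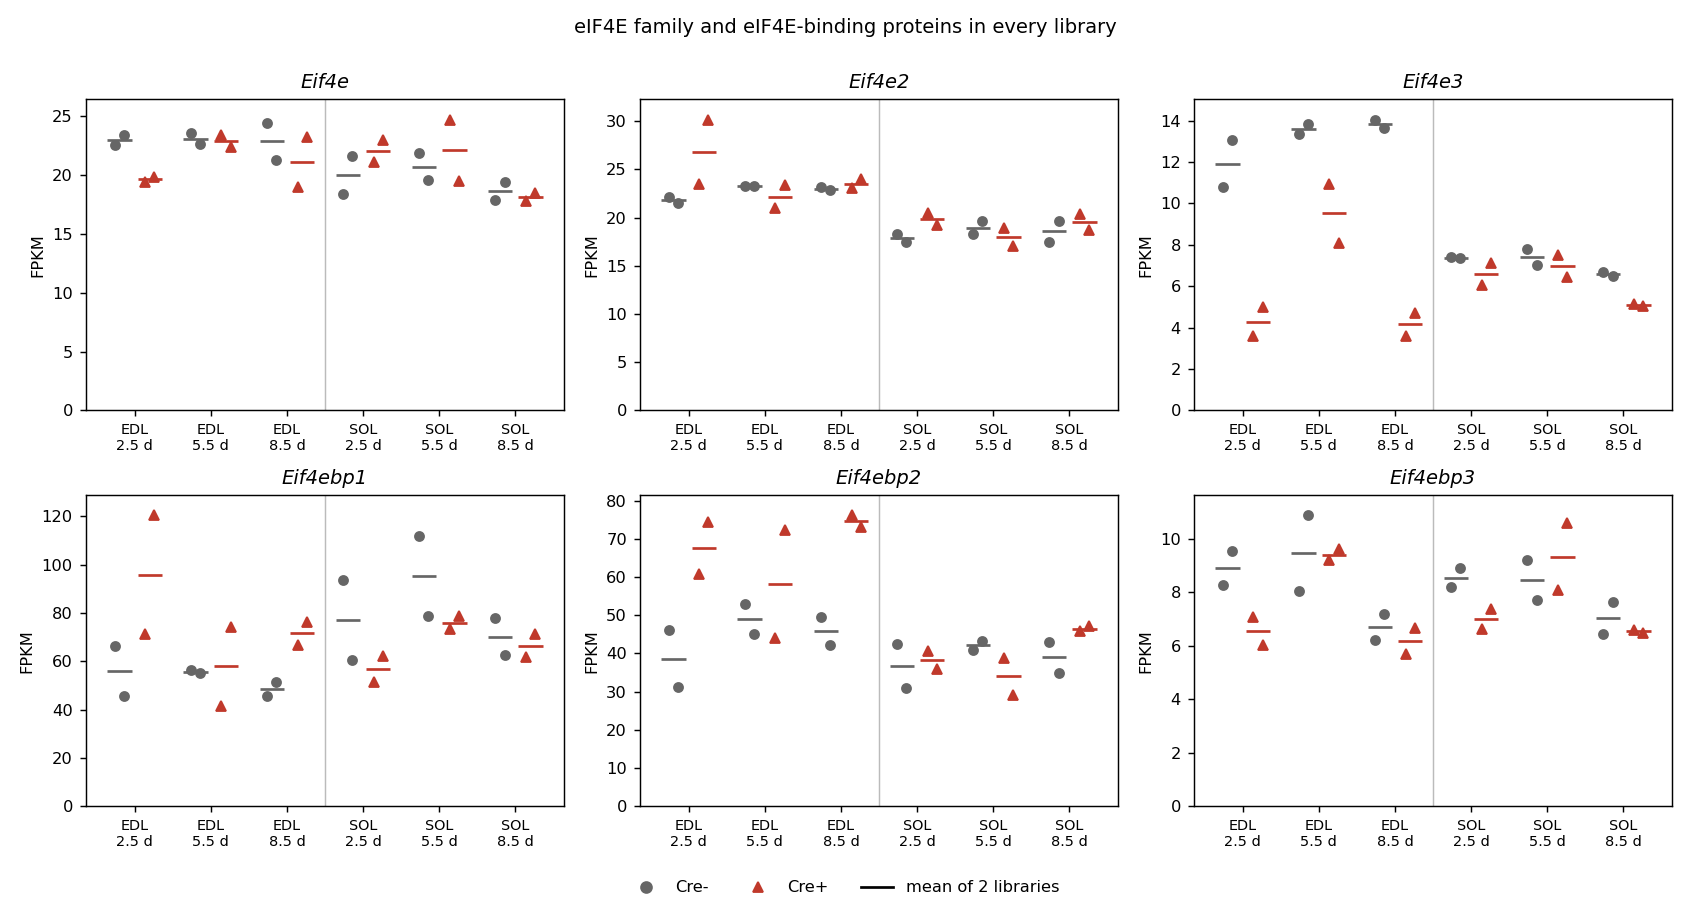
Level of the cap-binding genes Eif4e, Eif4e2 and Eif4e3 (top) and of the binding protein genes Eif4ebp1, Eif4ebp2 and Eif4ebp3 (bottom) in each library in FPKM, by muscle and day, with Cre- as circles, Cre+ as triangles and means of 2 libraries as lines. Eif4e3 is at 5.0 FPKM or less in Cre+ EDL at 2.5 and 8.5 days and at 10.8 or more in Cre- EDL, and SOL lies between.

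The eIF4E-binding proteins keep eIF4E from eIF4G unless mTORC1 phosphorylates them. Eif4ebp2 was at 46.1 and 31.3 FPKM in Cre- EDL and 60.8 and 74.4 in Cre+ EDL at 2.5 days (log2 fold change 0.82, SE 0.20, edgeR adjusted p = 0.0088). At 8.5 days it was at 49.4 and 42.3 against 76.1 and 73.2 FPKM (0.70, SE 0.20, edgeR adjusted p = 0.031, or 0.060 in the replicate block), and the call of that day was lost with each of the 4 libraries left out. Eif4ebp1 was at 66.3 and 45.7 FPKM in Cre- and 71.3 and 120 in Cre+ EDL at 2.5 days (0.79, SE 0.26, edgeR adjusted p = 0.041, or 0.12 in the replicate block), and without Cre+ replicate 2 its log2 fold change was 0.35 and did not pass. Eif4ebp3 had -0.44 and -0.12 and did not pass, so the 3 genes did not move together. Eif1ad and Eif4a3, which carry factor names but act in the nucleus, the latter in the exon junction complex, did not pass at either day.

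Replicate 2 of Cre+ EDL at 2.5 days had more Pou5f1 than replicate 1 and carried part of the result of that day. Without it 7 factors remained higher (Eef1a1, Eef2kmt, Eif1a, Eif3a, Eif3l, Eif4b and Eif5a) and Eif4e3 lower. Without replicate 1 of the same group 22 were higher and 2 lower, and without Cre- replicate 2 there were 11 and 1. At 8.5 days 3 were higher and 1 lower both without Cre- replicate 1 and without Cre+ replicate 1, and 9 were higher and 3 lower without Cre- replicate 2.

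The change at 2.5 days differed between EDL and SOL for 6 factors, Eef1a1, Eef2kmt, Eif3g, Eif3l and Eif5a in the direction of a greater rise in EDL and Eif4e3 of a greater fall, with 4.25% of all genes called (3.36% higher and 0.891% lower in EDL). At 8.5 days Eif4e3 alone passed, with 0.592% of all genes called (0.533% higher and 0.0585% lower). These tests were sensitive to single libraries: without Cre- EDL replicate 2 or Cre+ SOL replicate 2 of 2.5 days none of the 6 passed, and without Cre- EDL replicate 1, Cre+ EDL replicate 2 or Cre- SOL replicate 1 there was 1. With EDL and SOL libraries paired in a replicate block, 8 factors passed at 2.5 days, among them 5 of the 6 and also Eif4b, Eif4ebp1 and Eif4ebp2.

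Other genes of the translation pathway were read from lists by role. Of 6 poly(A)-binding proteins and partners 3 rose in Cre+ EDL at 2.5 days and 2 at 8.5 days, with 13.8% and 7.63% of all genes. The lowest log2 fold change in this list was -0.57 at 2.5 days and -0.70 at 8.5 days, and none was called lower. Pabpc4 was at 63 and 60.5 FPKM in Cre- EDL and 86.4 and 94.4 in Cre+ EDL at 2.5 days and rose at both days, by 0.56 and 0.68 on the log2 scale. Larp1, which binds the terminal oligopyrimidine mRNAs, rose by 0.80 and 0.63, and Pabpc1 by 0.84 at 2.5 days. Among 14 tested kinases and regulators of initiation 1 rose at each day, the eIF4E kinase gene Mknk2, at 97.6 and 84.8 FPKM in Cre- and 187 and 186 in Cre+ EDL at 2.5 days (log2 fold change 1.04, SE 0.15). The change of Mknk2 exceeded that in SOL by 1.21 (SE 0.21, edgeR adjusted p = 0.010). Of the 2 enzymes that make the hypusine of eIF5A, Dhps rose at 8.5 days by 0.51. None of the 9 termination and recycling factors and none of the 9 mitochondrial translation factors passed in EDL at either day, with median log2 fold changes of 0.36 and -0.10 at 2.5 days. An unadjusted edgeR p under 0.05, a looser threshold than a call, was reached by 4 and 2 of them at 2.5 days and by 0 and 2 at 8.5 days.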

How the data were processed

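The deposited table holds raw read counts per gene for 24 libraries, which the authors made by aligning reads to mm10 with STAR 2.5.3a and counting those uniquely aligned to RefSeq exons with HOMER (tool names and the STAR version also per the labels, which add FastQC 0.11.2). Counting on exons with unique reads lowers genes with close copies. The labels name the libraries stranded, and the strand setting of the counting is not given in the sources used here. Columns were matched to samples by title. The factors, role lists and tests were chosen with earlier results of these data known.

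Counts were fitted with edgeR 4.0.16 in R 4.3.3 (quasi-likelihood, TMM, 8 groups of the 16 libraries of 2.5 and 8.5 days; 12 groups of all 24 for 5.5 days) after its filter at 10 counts, with Benjamini-Hochberg adjustment over all genes. DESeq2 1.42.0, other scalings, filters, library sets, a replicate block and each library left out were alternatives. Scripts were tested on simulated counts. FPKM used summed exon length and TMM-scaled totals. The Eef1a1 to Eef1a2 ratio was tested by exact permutation within days. Replicate pairs of no group agreed within sampling noise, and nothing in the labels ties libraries to single animals, so p-values measure the spread between these libraries. Same-numbered EDL and SOL libraries deviated together in all 6 pairings (correlation 0.171 to 0.447 over 15414 genes). They were treated as pairs in the replicate block of the comparisons between muscles. In comparisons of genotype the block paired same-numbered Cre+ and Cre- libraries, whose deviations correlated at -0.17 to 0.0579. Factors named with values in every library were Eef1a1, Eef1a2, the 3 largest called rises and falls in EDL at each day, those differing between muscles and the Eif2s3 pair. Other factors and the pathway genes were named by role or call.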

Additional observations from a re-analysis of the deposited data

Results flagged for a closer look

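All groups held 2 libraries, and no test for a library standing apart within its group was run. The results below were singled out because the change from Cre- to Cre+ differed between EDL and SOL by a test of the difference itself, an interaction term in edgeR's quasi-likelihood fit with Benjamini-Hochberg adjustment.

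At 2.5 days the log2 fold change in EDL exceeded that in SOL by 1.53 for Eef1a1, by 1.18 for Eef2kmt, by 1.01 for Eif3l, by 0.78 for Eif5a and by 0.72 for Eif3g. For Eif4e3 the difference, EDL minus SOL, was -1.29 at 2.5 days and -1.37 at 8.5 days. Each sign is that of all libraries left out in turn, with ranges of 1.27 to 1.84 for Eef1a1 and -1.55 to -1.06 for Eif4e3 at 2.5 days. Cre+ EDL libraries also held more Pou5f1 than Cre+ SOL libraries of the same day, 15.6 and 58.2 against 4.51 and 8.76 FPKM at 2.5 days, and its part in these differences was not tested.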

How the results depend on the processing

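Counts in this section, unlike those of the Results, include Eif4e1b, which passed the filter only through the libraries where it is high. No called factor reversed its sign under any alternative run. Called factors kept their call in 369 of the settings that used every library and lost it in 38, and kept it in 151 and lost it in 85 when 1 library was left out. With edgeR on the 4 libraries of a comparison, 10 factors were called in EDL at 2.5 days and 3 at 8.5 days, where the fit of 16 libraries called 21 and 8, counts that here include Eif4e1b. Scaled by library totals alone the counts were 36 and 17, 10 for the difference between muscles at 2.5 days and 0 at 8.5 days. That scaling moved the median of all genes to 0.28 in EDL at 2.5 days, 0.16 at 8.5 days and 0.18 in SOL at 2.5 days, and the factors lay 0.32, 0.18 and -0.03 above it, as with TMM (0.32, 0.18 and -0.03). DESeq2 on the same libraries called 11 for the difference at 2.5 days and 1 in SOL at 8.5 days, and DESeq2 on 4 libraries called 1 in SOL at 2.5 days (Eif1a). An adjusted p alone, without the fold threshold, called 16 in the comparison of Cre- EDL with SOL.

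Leaving out 1 library in turn gave 9 to 25 called factors in EDL at 2.5 days, 4 to 13 at 8.5 days, 0 to 15 and 0 to 1 for the difference between muscles at 2.5 and 8.5 days, 0 to 1 in SOL at 8.5 days and 0 to 4 for 8.5 minus 2.5 days in EDL. The 4 (Eef1e1, Eef2kmt, Eif1a and Eif1ax, lower at 8.5 days) were called without Cre+ EDL replicate 1 of 2.5 days, and the 1 in SOL (Eif2s3y) without Cre- replicate 1. For the difference at 8.5 days, Eif4e3 lost its call without replicate 1 of either EDL group or without any 1 of the 4 SOL libraries. With all 3 days, the difference of the log2 Eef1a1 to Eef1a2 ratio was 1.179 in EDL and 0.487 in SOL and passed 0.05, which 2 days could not reach. That set adds the Cre+ libraries of 5.5 days, most of them low in Pou5f1.

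Replicate numbers tied no Cre+ library to a Cre- one (correlations of deviations from -0.17 to 0.0579). With the replicate block, which paired them all the same, 19 factors, Eif4e1b among them, were called in EDL at 2.5 days. At 8.5 days there were 4 (Eef1a1, Eif2d, Eif3l and Eif4e3). In the sign-flip test of same-numbered pairs, the block in the ratio tests, the exact p was 0.125 in both muscles, the smallest possible. Low counts limit only Eif4e1b and Eif2s3y, and the 2 libraries a group limit the rest.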

Other observations

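Paralogue balances other than that of eEF1A were read from the same libraries, as values without a test. Eif4a1 made up 32.8% and 34.8% of the summed FPKM of Eif4a1 and Eif4a2 in Cre- EDL and 36.4% and 49.8% in Cre+ EDL at 2.5 days, and 28.4% and 34.4% against 43.7% and 41.9% at 8.5 days. In Cre- SOL its share lay between 40.9% and 47.0% over the 3 days, above every Cre- EDL library. Eif1a made up 7.76% and 7.60% of the summed FPKM of Eif1a and Eif1ax in Cre- EDL and 9.18% and 14.6% in Cre+ EDL at 2.5 days, and 8.24% and 8.58% against 13.1% and 12.4% at 8.5 days.

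The part of all counted reads that fell on the 65 factors, which depends on no scaling between libraries, was 1.09% and 0.973% in Cre- EDL and 1.59% and 1.92% in Cre+ EDL at 2.5 days. Without Eef1a1 and Eef2 these shares were 0.838% and 0.798% against 1.10% and 1.32%. At 8.5 days the shares of the 65 were 1.09% and 1.10% in Cre- EDL and 1.66% and 1.5% in Cre+ EDL. In SOL they were 1.17% and 1.09% against 1.29% and 1.26% at 2.5 days, and 1.17% and 1.23% against 1.38% and 1.23% at 8.5 days. Such shares also move with the rest of the library. Scaled by library totals, the median log2 fold change in SOL at 2.5 days was 0.149 for the factors and 0.176 for all genes. In EDL at 2.5 days it was 0.605 for the factors and 0.282 for all genes.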
